A study of Drosophila melanogaster with 9 samples.

Results

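The cytosolic ribosomal protein genes are the genes that encode the proteins of the ribosome outside mitochondria. They were taken by name from the deposited gene tables: every symbol that opens with RpL or RpS and a number, or with RpLP, together with *sta*, which encodes the small subunit protein SA. This rule uses no measured value. It found 93 of 17421 genes, 54 of the large and 39 of the small subunit, and 89 of them had at least 1 count. RNA was measured by RNA-Seq in dorsal organs of *Drosophila melanogaster* larvae in the third instar. The dorsal organ is the smell organ of the larval head and contains the olfactory receptor neurons (ORNs). Wild-type samples carried Orco-Gal4 and UAS-mCD-8GFP, and *Orco* mutant samples carried the same transgenes and were homozygous for the *orco1* allele. Both genotypes were in a *w1118* background. There were 4 wild-type and 5 *Orco* mutant samples, each isolated independently and made of 20 pooled organs picked by GFP, with 1 library per sample. The driver labels ORNs, but a sample is a whole organ with its support cells and any attached tissue.

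Each ribosome holds 1 copy of nearly every ribosomal protein, and the cell has to make these proteins in matched amounts with the rRNA. In *Drosophila*, loss of 1 gene copy of many of them gives the *Minute* phenotype of slow development and thin bristles. Several of the genes have a second copy elsewhere in the genome, and some of these copies are known for use in the germline. In an organ of mixed cell types the RNA level of these genes is set by all of its cells, and fewer cells of a type cannot be told apart from less RNA per cell.

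The libraries held 4090474 to 9157645 estimated counts, of which 33.3% to 53.8% fell on genes named as rRNA. *Orco* itself had 1025 to 1819 counts in the wild-type libraries and 0 to 16 in the *Orco* mutant libraries, so the labels and the targeted gene matched in all 9. Counts were scaled with TMM to CPM, counts relative to library size, and genotypes were compared with edgeR's quasi-likelihood test over the 8160 genes that passed its filter on low counts. The threshold was an adjusted p (Benjamini-Hochberg) under 0.05. *Orco* mutant 4 had the most genes with a count (10978) and the smallest share of mitochondrially encoded messages (0.543% of its counts), *Orco* mutant 3 had the fewest genes (6810), and *Orco* mutant 5 had the largest mitochondrial share (14.6%). Of the 6 support cell markers, the odorant-binding protein gene *Obp56d* took 98.2% of the summed level. *Obp56d* was at 5166 to 11801 CPM in wild-type and 2667 to 5713 CPM in *Orco* mutant libraries, and the other 5 markers summed to 97.8 to 146 CPM and 69.8 to 164 CPM. Of the 5 tested, 2 had a positive log2 fold change, 1 was at an unadjusted p under 0.05 and 0 passed. The neuron markers without *Orco* summed to 249 to 616 CPM in wild-type and 278 to 734 CPM in *Orco* mutants, and 6 of the 8 neuron markers, *Orco* included, had a positive log2 fold change. The part of cell type makeup in the results was not tested.

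Ribosomal protein genes took much of the RNA in every dorsal organ library. Their summed level was 65033, 69804, 83237 and 54836 CPM in the wild-type libraries 1 to 4. It was 72517, 56611, 61505, 109260 and 56993 CPM in the *Orco* mutant libraries 1 to 5. Of the counts outside rRNA, that was 10.01% to 13.3% in wild-type and 7.94% to 16.8% in *Orco* mutants. The means were 68228 ± 11794 CPM (SD, n = 4) in wild-type and 71377 ± 22129 CPM (SD, n = 5) in *Orco* mutants, a ratio of 1.05, and the libraries of the genotypes overlapped. *Orco* mutant 4 stood above all others, and without it the ratio was 0.907. It held the highest value of 59 of the 85 members that could be tested, and wild-type 3 held the highest of 19. The lowest value fell in wild-type 4 for 31 members and in *Orco* mutant 2 for 28. Most members were thus high together or low together in a library, and the extremes fell in both genotypes.

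**Figure D1:**
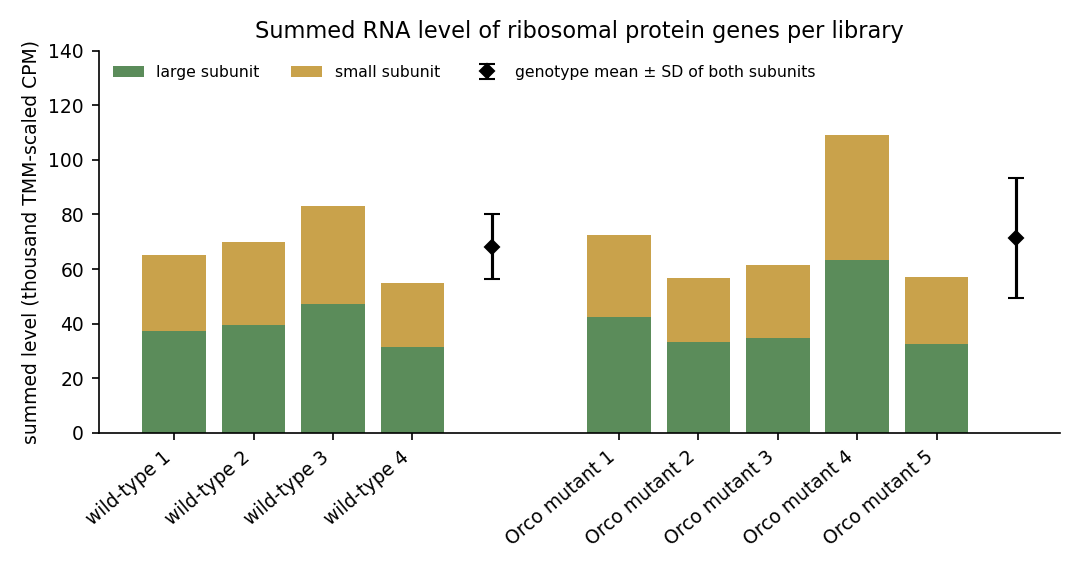
Summed level of the ribosomal protein genes in each of the 9 libraries, in units of 1000 TMM-scaled CPM. Bars are split into large subunit (bottom) and small subunit (top) genes, and the diamonds with error bars give the mean ± SD of each genotype for both subunits together. Wild-type libraries lie between 54836 and 83237 CPM and *Orco* mutant libraries between 56611 and 109260 CPM.

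The subunits kept close proportions. The summed level of large subunit genes divided by that of small subunit genes was 1.34, 1.31, 1.32 and 1.33 in the wild-type libraries. In the *Orco* mutant libraries it was 1.41, 1.41, 1.29, 1.37 and 1.33. The means were 1.325 ± 0.0121 (SD, n = 4) and 1.36 ± 0.0525 (SD, n = 5). The *Orco* mutant values fell on both sides of the narrow wild-type range, and the difference of the means was smaller than the spread among the *Orco* mutant libraries. Without every gene that has a second copy, the *Orco* mutant ratio divided by the wild-type ratio moved from 1.027 to 0.9999.

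No ribosomal protein gene passed the test between the genotypes. Of the 93 genes, 85 were tested, 51 of the large and 34 of the small subunit. With edgeR 0 passed, beside 3 of all 8160 genes (0.0368%). With DESeq2 0 passed too, beside 61 of 8079 genes (0.755%). At an unadjusted p under 0.05 edgeR gave *RpL4* as higher and *RpL38* as lower in *Orco* mutants, 2 of 85 members, beside 4.96% of all tested genes. The median log2 fold change of *Orco* mutant over wild-type was 0.11 for the large subunit genes and 0.03 for the small subunit genes, beside 0.00 for all tested genes. With totals without rRNA genes as the scale the small subunit median was -0.02, so it had no stable sign. On that scale the median over all tested genes moved too, to -0.03. Of the members, 54 had a positive and 31 a negative log2 fold change, from -0.83 to 0.68. Without *Orco* mutant 4 the medians were -0.05 and -0.13, and 33 members had a positive and 52 a negative log2 fold change. In that fit 6 of 85 members were at an unadjusted edgeR p under 0.05 (7.06%, beside 4.27% of all tested genes).

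The precision of these comparisons was higher than for most genes. For 63 of the 85 members the 95% interval excluded changes of 2-fold or more in either direction, 35 of the large and 28 of the small subunit, beside 5.4% of all tested genes. The members were among the most abundant genes, so a nearer comparison is with the 405 genes at a mean of at least 193.7 CPM. This is the lowest level of a tested member that is not a second or -like copy. Among the 405 genes the interval was within 2-fold for 61 of 80 members and for 124 of 325 other genes. This count depends on the size of the estimate as well as on the width of the interval. The median width on the log2 scale was 1.23 for the 80 members and 1.41 for the 325 other genes. Leaving out 1 library at a time gave 48 to 67 members, with the lowest count without wild-type 1. With the replicate number as a block, on the 8 libraries that share a number, it was 34. These intervals cover the spread between samples, and since Smart-seq2 amplifies cDNA without marking molecules, counts may include copies of the same molecule.

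**Figure D2:**
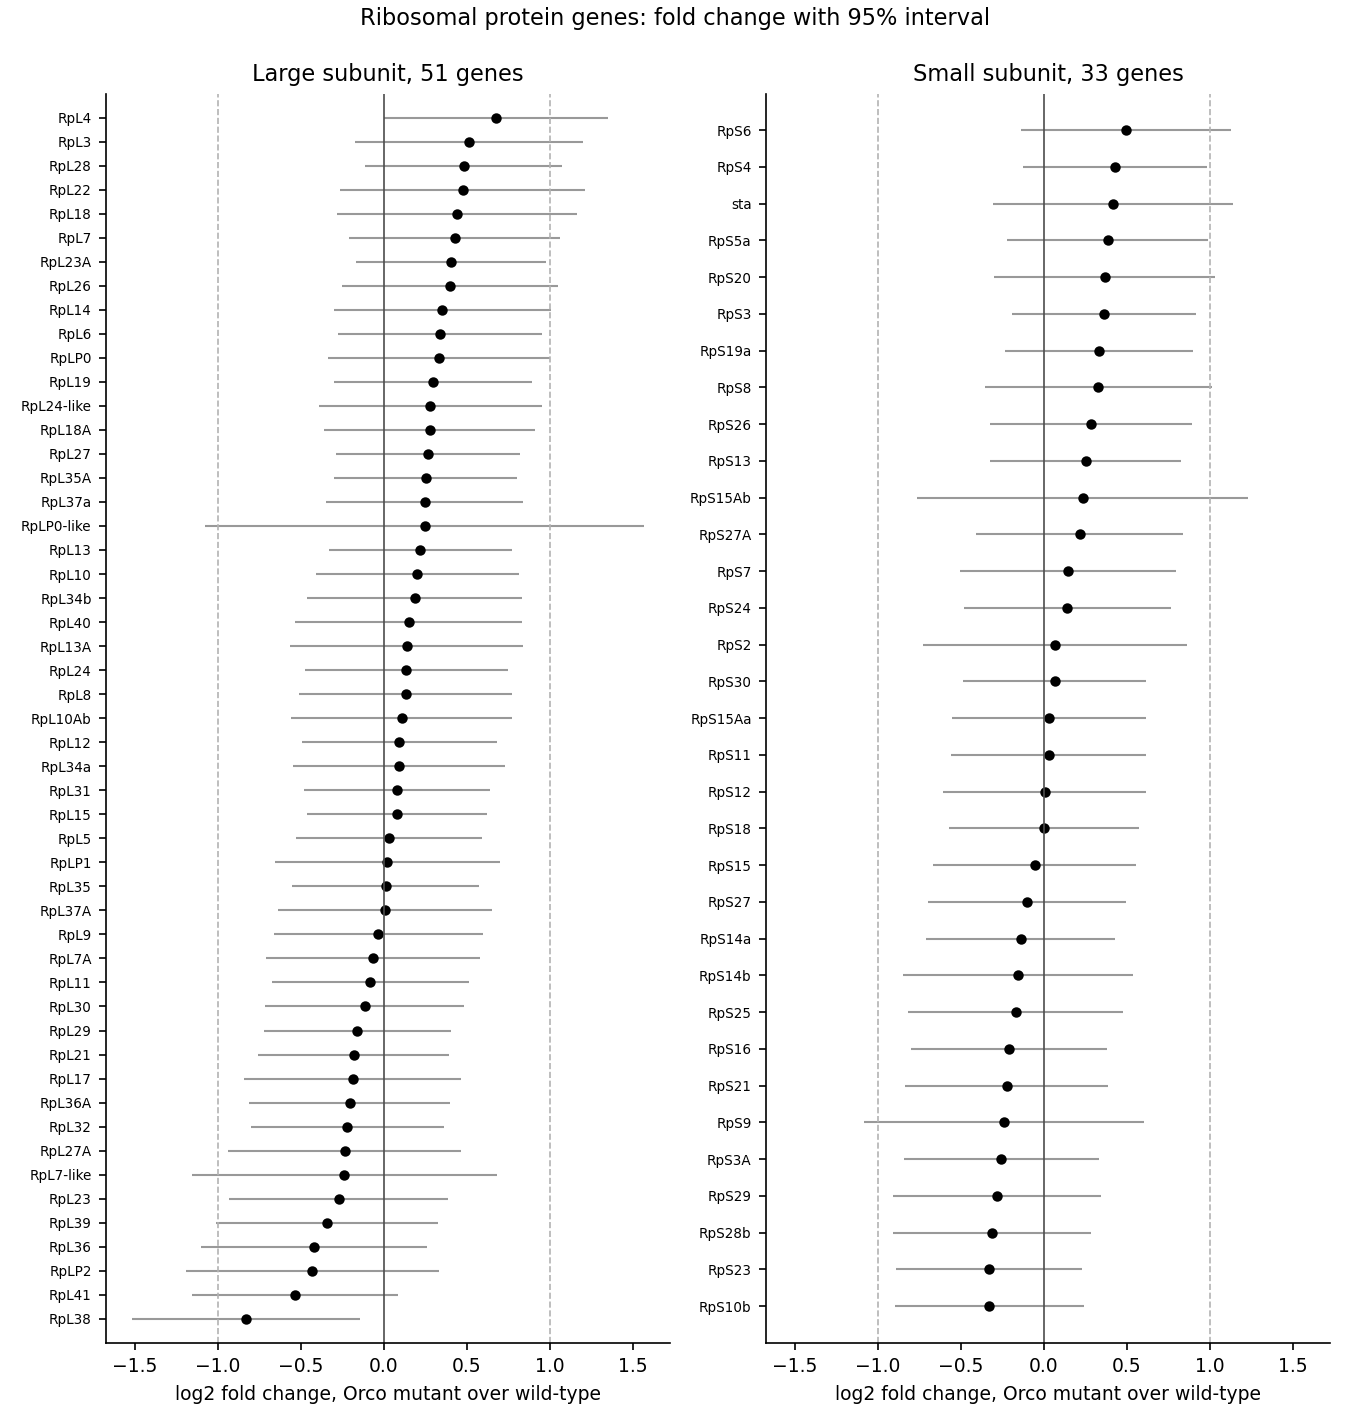
Log2 fold change of *Orco* mutant over wild-type for the 51 tested large subunit genes (left) and 33 of the 34 tested small subunit genes (right), ordered by value. Points are edgeR estimates, grey lines are 95% intervals and dashed lines mark a 2-fold change. All intervals but those of *RpL38* and *RpL4* cross 0, and the points lie between -0.83 and 0.68.

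*RpL38* encodes a small protein of the large subunit that in the mouse is known for its part in the translation of *Hox* mRNAs. Its level was 1238, 1225, 2762 and 1320 CPM in the wild-type libraries. It was 1122, 635, 804, 1134 and 904.5 CPM in the *Orco* mutant libraries. Every *Orco* mutant library lay below every wild-type library, and wild-type 3 stood far above the other 3. The log2 fold change was -0.83 (SE 0.32, 95% interval -1.52 to -0.14), with an edgeR p of 0.0217 before and 0.978 after adjustment. Without wild-type 3 it was -0.46. *RpL38* was the only member whose libraries did not overlap between the genotypes, 1 of 85, beside 3.87% of all tested genes. The gene lies on chromosome 2R from 4515388 to 4516458 of the Release 6 genome, and its transcript RpL38-RA held 67.4% to 82.5% of its counts in each library.

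*RpL4* encodes a core protein of the large subunit that lines part of the exit tunnel. Its level was 949, 748, 888 and 790.4 CPM in wild-type and 1162, 1176, 1080, 2399 and 930.3 CPM in *Orco* mutants. Only *Orco* mutant 5 fell within the wild-type range, and *Orco* mutant 4 stood far above all other libraries. The log2 fold change was 0.68 (SE 0.31, 95% interval 0.00 to 1.35), with an edgeR p of 0.0486 before and 0.992 after adjustment, and without *Orco* mutant 4 it was 0.36. *RpL4* lies on chromosome 3R from 27922821 to 27924888, and only 1 of its transcripts had counts.

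*RpL41* and *RpL28* were next among the large subunit genes. *RpL41*, which encodes the smallest protein of the ribosome, had 435, 395, 687 and 353 CPM in wild-type and 356, 240.3, 299, 427 and 290.2 CPM in *Orco* mutants. Its log2 fold change was -0.54 (SE 0.29) with an edgeR adjusted p of 0.997, and without wild-type 3 it was -0.30. *RpL28* had 630.1, 643, 642 and 457 CPM in wild-type and 752, 545.5, 891, 1169 and 787.5 CPM in *Orco* mutants, with a log2 fold change of 0.48 (SE 0.27). In both genes the libraries of the genotypes overlapped.

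Among the small subunit genes the 4 smallest p-values belonged to *RpS6*, *RpS4*, *RpS3* and *RpS5a*, and all 4 had a positive log2 fold change, between 0.36 and 0.50. *RpS6* encodes the target of the S6 kinase. Its level was 564, 597, 473 and 482 CPM in wild-type and 681, 622, 721, 1215 and 491 CPM in *Orco* mutants, with a log2 fold change of 0.50 (SE 0.29, edgeR adjusted p = 0.997), which was 0.25 without *Orco* mutant 4. *Orco* mutant 5 lay within the wild-type range. *RpS3*, a protein at the mRNA entry site that also has a role in DNA repair, had 526, 554, 576 and 516 CPM in wild-type and 705, 554, 687, 998 and 549 CPM in *Orco* mutants. Its log2 fold change of 0.36 (SE 0.26) was 0.20 without *Orco* mutant 4, and *Orco* mutants 2 and 5 lay within the wild-type range.

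The stalk of the large subunit, formed by *RpLP0*, *RpLP1* and *RpLP2*, recruits the elongation factors to the ribosome. *RpLP2* had 1765, 1830, 3354 and 1724 CPM in wild-type and 1844, 1316, 1170, 2742 and 968 CPM in *Orco* mutants. *RpLP1* had 1434, 1454, 1624 and 1016 CPM in wild-type and 1355, 1176, 967, 2442 and 1081 CPM in *Orco* mutants. *RpLP0* had 1016, 1107, 1179 and 1010 CPM in wild-type and 1370, 1261, 979, 2334 and 858 CPM in *Orco* mutants. The log2 fold changes were -0.43 (SE 0.35) for *RpLP2*, 0.02 (SE 0.31) for *RpLP1* and 0.34 (SE 0.31) for *RpLP0*, none of them past the test, and the differences among them were not tested. Single libraries weighed on them: *RpLP2* was at -0.14 without wild-type 3, and *RpLP0* was at 0.05 without *Orco* mutant 4. *RpLP2* was highest in wild-type 3, while *RpLP0* and *RpLP1* were highest in *Orco* mutant 4. Like *RpLP0* and *RpLP1*, *sta* was highest in *Orco* mutant 4. It had 1116, 1224, 1230 and 1011 CPM in wild-type and 1507, 1203, 1212, 2852 and 889.9 CPM in *Orco* mutants, with a log2 fold change of 0.42 (SE 0.33), which was 0.07 without *Orco* mutant 4.

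The measured RNA levels of the members were unequal, although the ribosome holds their products in nearly equal numbers. The part of amplification and of transcript length in differences between genes was not tested. Per kilobase of transcript (CPM divided by the transcript length weighted by counts), the 51 tested large subunit genes had a median of 879.8 CPM per kb and the 34 small subunit genes a median of 1111 CPM per kb. The quartiles of the 85 members were 755 and 1569 CPM per kb. *RpS25* was the highest of the small subunit genes, with 3715 ± 1017 CPM per kb (SD, n = 4) in wild-type and 3303 ± 1079 CPM per kb (SD, n = 5) in *Orco* mutants. It was followed by *RpS29*, *RpS3A*, *RpS15* and *RpS7*, with means over the 9 libraries of 1929, 1863, 1752 and 1734 CPM per kb, which lie closer together than their libraries. *RpLP2* led the large subunit genes, with 3590 ± 1311 CPM per kb in wild-type and 2662 ± 1179 CPM per kb in *Orco* mutants. *RpL38*, *RpLP1*, *RpL27A* and *RpL13A* followed with means of 2309, 2184, 1938 and 1882 CPM per kb. *RpL38* was in this place through the wild-type libraries (3051 ± 1401 CPM per kb), since the *Orco* mutant libraries had 1716 ± 397 CPM per kb. The lowest tested members were second or -like copies by name: *RpLP0-like* at 25.2, *RpL7-like* at 36.8 and *RpS15Ab* at 50.5 CPM per kb.

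Members varied little between samples of 1 genotype. The SD of log2 CPM within genotypes had a median of 0.364 over the tested members, beside 1.42 over all tested genes. Among the 405 genes at the level given above, it was 0.364 for the 80 members and 0.484 for the 325 other genes. Of the 41 genes with the smallest SD 8 were members, close to the members' share of the 405 genes. The highest library exceeded the lowest by 1.63-fold to 5.25-fold, with a median of 2.18-fold. Without *Orco* mutant 4 the median SD was 0.265.

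**Figure D3:**
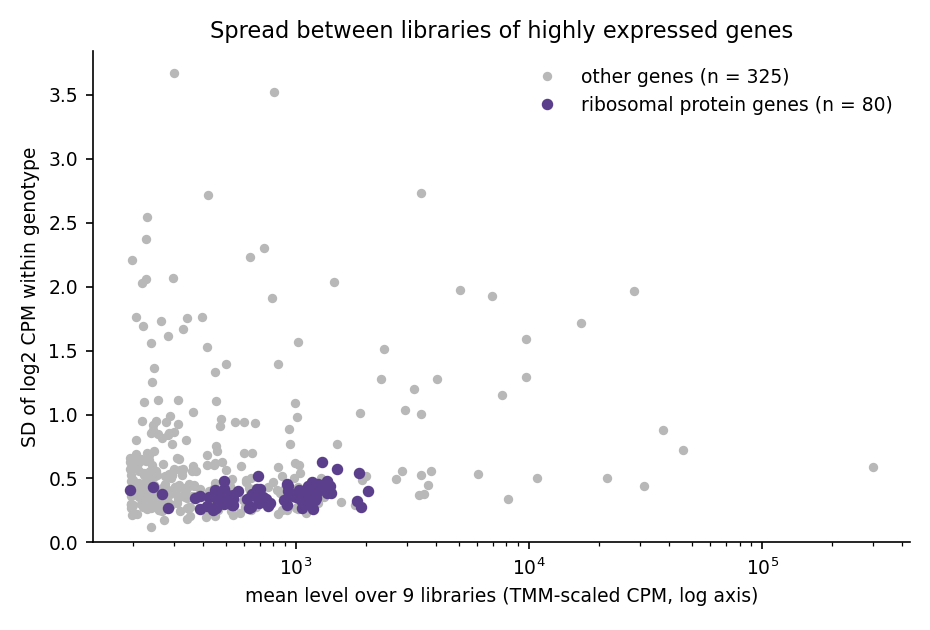
SD of log2 CPM within genotypes against the mean level over the 9 libraries (log axis) for the 405 genes at a mean of at least 193.7 CPM. Purple points are 80 ribosomal protein genes and grey points 325 other genes. The ribosomal protein genes form a narrow band with a median SD of 0.364, and the other genes reach from below that band to above 3.

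*RpL35A*, *RpL15* and *RpL29* were the steadiest large subunit genes, and *RpS3* and *RpS4* were among the 3 steadiest small subunit genes. *RpL15* had 1080, 1288, 1193 and 1043 CPM in wild-type and 1488, 880.3, 1020, 1464 and 1237 CPM in *Orco* mutants (SD of log2 CPM 0.265). *RpS4* had 971, 875, 980.5 and 748 CPM in wild-type and 1142, 972, 1173, 1715 and 1022 CPM in *Orco* mutants (SD 0.271). *Orco* mutant 4 was the highest library for *RpS4* but not for *RpL15*. *RpL35A* is also the member nearest to *Orco*, with 53.2 kb between the genes on chromosome 3R, and its log2 fold change was 0.25 (SE 0.25), while *RpL13A*, 212 kb away, had 0.14 (SE 0.32).

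The widest spread belonged to *RpLP0-like*, *RpLP2* and *RpL22* in the large and to *RpS9*, *RpS2* and *sta* in the small subunit. *RpS9* had 1488, 1226, 1915 and 1013 CPM in wild-type and 1119, 999, 579, 2440 and 842 CPM in *Orco* mutants (SD 0.632), so that *Orco* mutants 3 and 4 differed by 4.22-fold. *RpS9* shares 512 exon bases with the antisense RNA *asRNA:CR45874*, and the kit does not mark strand, so reads of the overlap cannot be told apart. *RpS2* had 1211, 1306, 2055 and 1258 CPM in wild-type and 1639, 1322, 945, 2871 and 862 CPM in *Orco* mutants (SD 0.576). *RpL22* had 541, 611, 605 and 494 CPM in wild-type, a narrow range, and 758.5, 682, 663, 1423 and 385 CPM in *Orco* mutants.

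The fold changes of the members followed the length of their transcripts. This was noticed after the values had been seen and is given as a description. The shortest 28 members (288 to 621 nt) had a median log2 fold change of -0.16, the middle 28 a median of 0.14 and the longest 29 (787 to 1439 nt) a median of 0.25. Of the longest, 22 of 29 had a positive log2 fold change, and of the shortest, 12 of 28. Spearman's rho between log2 fold change and length was 0.52 over the 85 members, which share their libraries and are not independent. It was 0.12 over 2585 other tested genes of the same length range, and 0.28 over the 157 of these at the level of the members or above. Leaving out 1 library at a time gave 0.45 to 0.56 for the members. *RpL38* and *RpL41* lie at the short end of this order, and *RpL4* at the long end.

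**Figure D4:**
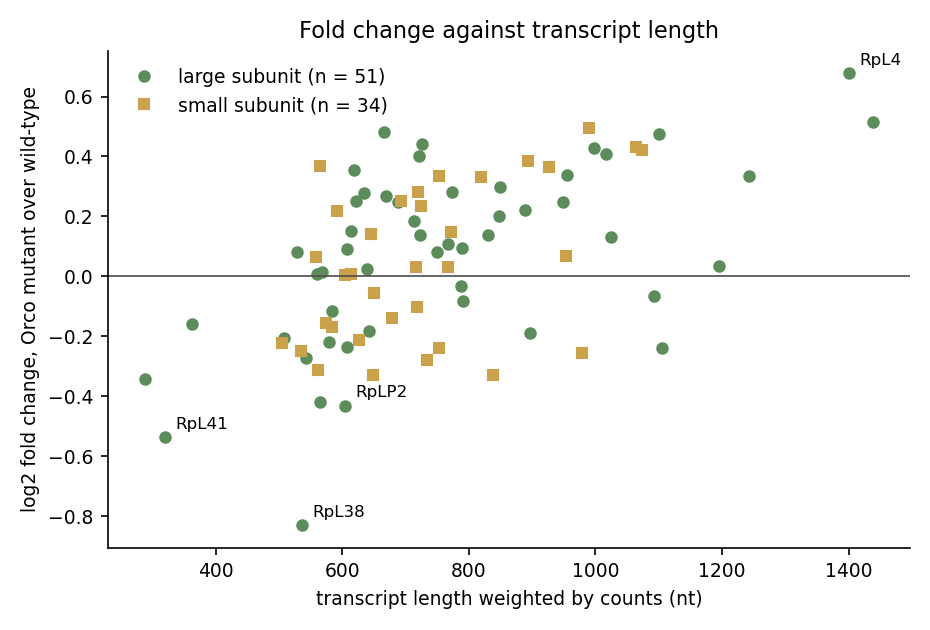
Log2 fold change of *Orco* mutant over wild-type against transcript length weighted by counts, for 51 large (circles) and 34 small subunit genes (squares). The points rise from left to right (Spearman's rho 0.52), with a median of -0.16 over the shortest 28 and 0.25 over the longest 29 members.

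The order by length also differed between libraries. The median deviation of the longest 29 members from each gene's own mean, less that of the shortest 28, was -0.09, -0.16, -0.35 and -0.04 on the log2 scale in the wild-type libraries. It was 0.14, 0.32, -0.02, 0.33 and -0.02 in the *Orco* mutant libraries. *Orco* mutants 3 and 5 lay just above wild-type 4. Spearman's rho of the deviation with length over the 85 members was -0.30, -0.41, -0.49 and -0.10 in wild-type and 0.27, 0.72, -0.02, 0.49 and -0.12 in *Orco* mutants, and by this measure *Orco* mutant 5 lay below wild-type 4. In the other genes of the same length range, rho was -0.08 to 0.02 in the wild-type and -0.10 to 0.30 in the *Orco* mutant libraries, with overlap. In the 157 of these at the level of the members or above, rho was -0.16, -0.16, -0.46 and -0.26 in wild-type. It was 0.23, 0.38, 0.22, 0.17 and -0.09 in *Orco* mutants, without overlap. The deviations come from the same libraries as the log2 fold changes. They show the order by length per library and are not separate support for it. RNA quality was not measured in the files, and its part in this pattern was not tested.

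Second and -like copies of ribosomal protein genes fell into copies with counts in every library and copies that were nearly or wholly silent. The -like genes were paired by name, and whether their products are part of the ribosome was not tested. Of the 14 second or -like copies set beside the main gene, 6 had counts in all 9 libraries, 4 in some and 4 in none. The estimated counts divide reads shared by near-identical copies, so the share of a copy in its pair is uncertain where the sequences are alike. *RpL34a* held 32.5%, 29.6%, 36.1% and 33.8% of the counts of *RpL34a* and *RpL34b* in wild-type and 33.6%, 29.2%, 40.6%, 23.8% and 34.8% in *Orco* mutants. *RpS14b* held 17.0%, 14.7%, 20.7% and 17.2% of the counts of *RpS14a* and *RpS14b* in wild-type and 16.1%, 18.4%, 15.2%, 20.1% and 15.5% in *Orco* mutants. The RpS14 copies are neighbours on the X chromosome, from 7933742 to 7934677 and from 7934898 to 7935792. For *RpL34a* the wild-type libraries lay inside the range of the *Orco* mutants, and for *RpS14b* the *Orco* mutants lay inside the range of the wild-type.

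*RpL24-like*, which resembles an assembly factor of yeast, held 14.3%, 12.5%, 13.01% and 11.3% of the counts of its pair with *RpL24* in wild-type and 16.7%, 13.5%, 21.1%, 8.03% and 14.002% in *Orco* mutants. The range was wider in the *Orco* mutants on both sides. *RpS15Ab*, a gene of 1 exon, held 3.62% to 7.99% of its pair with *RpS15Aa* in wild-type and 3.91% to 8.26% in *Orco* mutants. *RpL7-like* held 2.97%, 3.08%, 5.27% and 3.78% of its pair with *RpL7* in wild-type and 2.42%, 2.65%, 1.91%, 1.92% and 3.85% in *Orco* mutants. Only *Orco* mutant 5 reached the wild-type range, and the difference of the mean shares was -1.22 percentage points (two-sided exact permutation p = 0.0873, adjusted over 9 pairs 0.393). *RpL7-like* shares 1771 exon bases with the gene *CG34164* on the same strand, so its counts are uncertain. *RpLP0-like* held 0.557% to 3.01% of its pair with *RpLP0* in wild-type and 1.20% to 3.16% in *Orco* mutants.

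**Figure D5:**
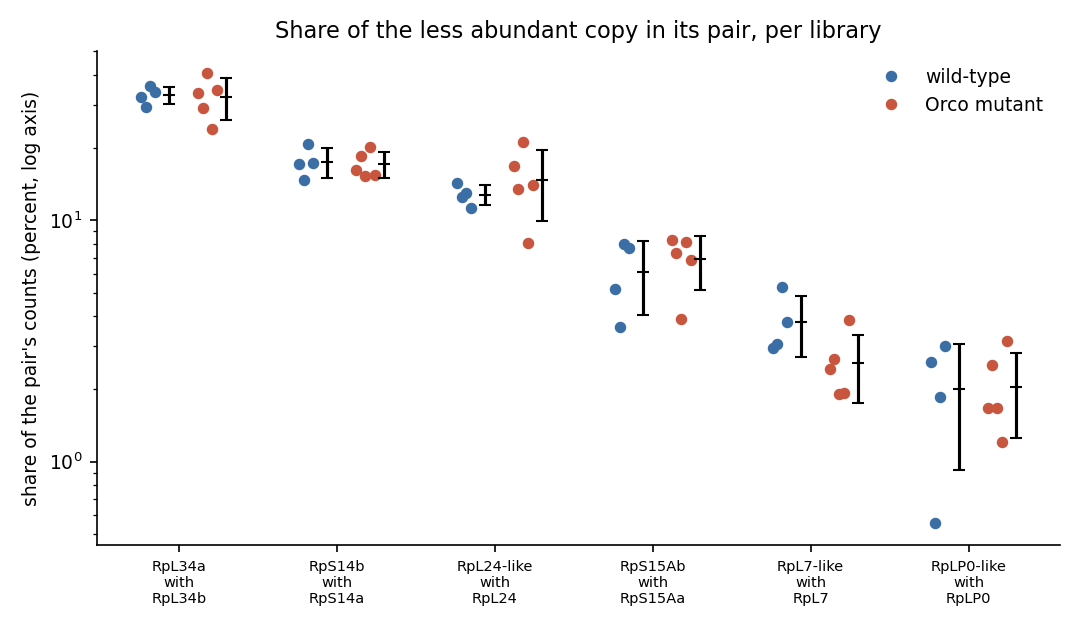
Share of the less abundant copy in the counts of its pair (percent, log axis) for the 6 copies with counts in all 9 libraries. Points are libraries, and the bars beside them give the mean ± SD of the genotype. The genotypes overlap in every pair, with *RpL34a* highest (23.8% to 40.6%) and *RpLP0-like* lowest (0.557% to 3.16%).

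The other copies were rare. *RpS5b*, a copy known from the ovary, had 34 counts in 3 libraries beside 66883 counts of *RpS5a*. *RpS28-like* had 20 counts in 6 libraries, 14 of them in wild-type, and made up 0.221%, 0.0240%, 0.0929% and 0.0748% of its pair with *RpS28b* in the wild-type libraries. In the *Orco* mutant libraries it was at 0.0566% and 0.0476% in libraries 2 and 4 and at 0 in the other 3. The two-sided exact permutation p was 0.0397, and 0.357 when adjusted over the 9 pairs, with at most 6 counts in a library. *RpS10a* had 11 counts in 3 libraries and *RpS19b* 9 counts in 3 libraries. Both are copies known for expression in the germline.

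*RpL10Aa*, *RpL22-like*, *RpL37b* and *RpS28a* had 0 counts in all 9 libraries. With 3 counts over all libraries as the limit that 0 allows, *RpL10Aa* made up at most 0.00404% of its pair with *RpL10Ab*, *RpL22-like*, known from the testis, at most 0.00709% of its pair with *RpL22*, *RpL37b* at most 0.00563% of its pair with *RpL37a* and *RpS28a* at most 0.00854% of its pair with *RpS28b*. These limits cover counting error only. The germline markers *nos*, *osk* and *zpg* were at 0 as well, and the 8 germline markers summed to 1.95 to 9.82 CPM in wild-type and 5.24 to 34.9 CPM in *Orco* mutants. Of the germline sum *ovo* made up 76.4%, at 1.24 to 6.47 CPM in wild-type and 4.04 to 30.5 CPM in *Orco* mutants. Without *ovo* the germline markers summed to 0.709 to 3.35 CPM in wild-type and 0.827 to 5.09 CPM in *Orco* mutants. Of 11 testis markers, *aly*, *nht*, *dj* and *Mst98Ca* were at 0, and the list summed to 6.89 to 45.4 CPM over the libraries. *bol* made up 62.1% of the testis sum. Of the 9 pairs with at least 10 counts of the copy 0 passed after adjustment, but the smallest p that 4 against 5 libraries allow is 0.00794, which for a lone pair is 0.0714 after adjustment, so a single pair could not have passed.

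No single transcript of a member passed either. Of 236 annotated transcripts of the members 227 had a count and 211 were tested. With edgeR 0 passed, beside 2 of 13161 transcripts (0.0152%). At an unadjusted edgeR p under 0.05, 2 of 211 tested transcripts were higher in *Orco* mutants (RpL3-RG and RpL4-RA) and 1 was lower (RpL38-RA). Over all tested transcripts 3.05% were under this p. RpL4-RA held all counts of *RpL4* and RpL38-RA held 77.9% of those of *RpL38*, so these largely repeat the values of the genes. RpL3-RG, a minor transcript of *RpL3*, held 2.17%, 2.32%, 5.95% and 2.75% of the counts of its gene in wild-type and 4.72%, 4.37%, 10.1%, 3.23% and 5.75% in *Orco* mutants, with a log2 fold change of 1.17 (SE 0.45, edgeR adjusted p = 0.9998). Wild-type 3 was above all *Orco* mutant libraries but *Orco* mutant 3. The main transcript held over 90% of the counts in 25 of 89 genes and under 50% in 8. Among the 25 are the 21 genes with only 1 counted transcript, where the share is fixed. The other 68 genes had 2 or more counted transcripts.

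The members share features that the rule did not use. The dominant transcript of a member had a median of 648 nt, beside 1771 nt over 11447 protein-coding genes with a count, and its 5′ UTR a median of 61 nt beside 129 nt. Small nucleolar RNA (snoRNA) genes, whose products guide the modification of rRNA, lay inside 29 of the 89 members with a count (32.6%), beside 0.734% of all protein-coding genes with a count. *RpS5a* held 14 of the 76 snoRNA genes and *RpS7* held 7. The members were spread over the genome, with 19 genes on 2L, 21 on 2R, 14 on 3L, 23 on 3R, 1 on 4 and 15 on X. The median log2 fold change of the tested members was highest on 3L (0.27) and 3R (0.22). Over all tested genes of these arms it was -0.02 and 0.06. On 2R, which carries *RpL38* and *RpL41*, it was -0.05 for the members and -0.05 for all tested genes. In 32 of the 93 genes exons share bases with another annotated gene, in 20 of them with a protein-coding gene on the other strand. *RpL40* and *RpS27A* encode ubiquitin fused to a ribosomal protein and share this part with other ubiquitin genes.

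Genes that act with the ribosome were read beside the members, from lists of known factors. Of the elongation and termination factors 9 were tested and 0 passed with edgeR, with a median log2 fold change of 0.45 and 7 of 9 positive. Their summed level was 9340 to 10345 CPM in wild-type and 11803 to 22683 CPM in *Orco* mutants, without overlap. Of single tested genes 3.87% did not overlap, and no such share was computed for sums. *Ef1alpha48D* made up 64.0% of this sum. Its own level did not overlap either, at 5742 to 6259 CPM in wild-type and 7280 to 16003 CPM in *Orco* mutants. The other 8 summed to 3598 to 4210 CPM in wild-type and 3928 to 6680 CPM in *Orco* mutants, with overlap. *Ef1alpha48D*, which brings aminoacyl-tRNA to the ribosome, had 0.71 (SE 0.30, edgeR adjusted p = 0.980), and *Elf*, the termination factor eRF3, had 0.77 (SE 0.36, edgeR adjusted p = 0.992).

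Of the initiation factors 25 were tested and 0 passed, with a median of 0.11 and sums that overlapped between the genotypes (4886 to 5681 CPM and 5526 to 7141 CPM). The smallest p belonged to subunits of eIF3, with a log2 fold change of 0.74 (SE 0.28) for *eIF3-S9* and 0.89 (SE 0.43) for *eIF3-S10*. Of 20 ribosome assembly factors 0 passed, 15 had a positive log2 fold change and the median was 0.35. *Non1*, a GTPase of large subunit assembly, had 0.86 (SE 0.29, edgeR adjusted p = 0.781), and *Nop56*, a core protein of the snoRNA particles, had 0.89 (SE 0.43). Of 6 ribosome-associated proteins 0 passed, with a median of 0.30, 0.52 (SE 0.25) for *Rack1*, a scaffold on the small subunit, and 0.34 (SE 0.24) for *Tctp*. Of the 5 RNA polymerase I genes 0 passed, with a median of 0.61, 1.15 (SE 0.61) for the initiation factor *Tif-IA* and -1.09 (SE 1.53) for *RpI135*. The members had a median of 0.08, close to the 0.11 of the initiation factors. The other lists above had medians of 0.30 to 0.61. These differences were not tested.

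The genes that respond to loss of a ribosomal protein gave no call either. Of the 6 tested 0 passed, with a median of 0.79. *Xrp1*, the transcription factor that carries the *Minute* response, had a log2 fold change of 0.31 (SE 0.28, edgeR adjusted p = 0.997), and *p53* had 2.55 with an SE of 2.19. The 73 mitochondrial ribosomal protein genes, which encode another ribosome and were all tested, had a median of -0.42, with 58 negative and 15 positive values and 0 passed. Their SD of log2 CPM within genotypes had a median of 1.32, and no interval lay within 2-fold, so the values were far less precise than those of the cytosolic genes. Their level was also far lower, with a median of 16.1 CPM beside 724 CPM for the tested cytosolic genes. All tested genes had a median level of 18.2 CPM and a median SD of 1.42. The difference between the cytosolic and mitochondrial lists was not tested.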

How the data were processed

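RNA-Seq libraries of 4 wild-type and 5 *Orco* mutant dorsal organ samples were used. The authors demultiplexed single-end reads with CASAVA 1.8.2, removed those with adapters using cutadapt 1.9.1, and quantified the rest with kallisto 0.43.0 against a FlyBase transcriptome. The deposited values are estimated counts without normalization, in 1 gene table and 1 transcript table per sample. A further *Orco* mutant sample named in the methods was not analysed here.

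Estimated counts were rounded. Genes were kept by filterByExpr (minimum count 10, minimum total 15), scaled with TMM and tested with edgeR 4.0.16 (R 4.3.3), which was tested on simulated data. P-values were adjusted over all genes tested, and intervals are at 95%. SEs come from the coefficient without the prior count that the printed log2 fold change includes, so an interval need not centre on it. CPM are relative to TMM-scaled totals. Shares of a copy in its pair were compared with exact permutation tests over 126 groupings. Alternatives were DESeq2 1.42.0, limma 3.58.1, other scales and filters, the replicate number as a block, and leaving out each library. Positions and lengths were read from Ensembl's Release 6 annotation, where 88 members were found by identifier and 5 by symbol.

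The members and lists were chosen with earlier results of these data known. Named were all second copies and their partners, stalk genes and *sta*, members not tested, and per subunit the 5 highest per kilobase, the 4 smallest p-values and the 3 largest and 3 smallest spreads; in each list the 2 smallest p-values. *RpL3-RG*, the length order and the count of intervals within 2-fold were chosen after values were seen. A pseudocount alternative, meant for normalized values, was not needed. The values of 1 member are not reported here.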

Additional observations from a re-analysis of the deposited data

Results flagged for a closer look

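Among 112 sets of 4 or 5 libraries examined (library measures, named genes and shares of copies), 13 held 1 library far from the others. Chance gives about 1 in 20 for independent sets. These sets share libraries and members that vary together, so the count cannot be read as an excess over chance. In wild-type 3, *RpL38* was at 2762 CPM, *RpLP2* at 3354 CPM, *RpS2* at 2055 CPM and *RpL24* at 830.3 CPM, each above the other wild-type libraries, which reached 1320, 1830, 1306 and 654 CPM. In wild-type 4, *RpL28* was at 457 CPM, below the 630.1 to 643 CPM of the other wild-type libraries.

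In *Orco* mutant 4, *RpL4* was at 2399 CPM, *RpLP1* at 2442 CPM, *RpS25* at 3023 CPM, *RpS3A* at 2552 CPM, *RpS4* at 1715 CPM and *RpS14b* at 388.8 CPM. The other *Orco* mutant libraries reached 1176, 1355, 1903, 1611, 1173 and 220.2 CPM. *RpS5b* was at 0.109% of its pair in wild-type 4 and *RpS10a* at 0.0896% of its pair in wild-type 1. Both were at 0 in the other wild-type libraries, where the rule flags any value above 0.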

How the results depend on the processing

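No ribosomal protein gene or transcript passed the test under any alternative run for it. Copy shares gave no call either, but with 4 against 5 libraries or fewer a single pair could not pass after adjustment. The number of all genes that passed, 3 with edgeR, was 61 with DESeq2, 12 with limma-voom, 91 with limma-voom and library quality weights, 5 without a filter, and 1 to 3 when 1 library was left out (1 without wild-type 2 or 4 or *Orco* mutant 2, 3 or 4). The count of members with an interval within 2-fold, 63 of 85, was 34 with the replicate number as a block, on the 8 libraries that share a number, and 48 to 67 when 1 library was left out. Same-numbered samples did not deviate together (correlations 0.0284, -0.103, -0.0181 and -0.0199), so the numbers were not taken to pair the samples, and the block changed no call of a member. When 1 library was left out, the median log2 fold change ranged from -0.05 to 0.21 for the large and from -0.13 to 0.14 for the small subunit genes, the ratio of summed levels from 0.907 to 1.13, and the relative subunit ratio from 1.02 to 1.04. Of 42 named members, 10 changed the sign of the log2 fold change under at least 1 of 8 other settings and 15 when a library was left out. With limma-voom and library quality weights the medians were 0.26 and 0.14, beside 0.15 for all genes, 13 of 85 members had an unadjusted p under 0.05 (15.3%, beside 13.96% of all genes), and the smallest adjusted p was 0.172. The spread between samples limits these comparisons (the intervals of members at 193.7 CPM or above had a median width of 1.23 on the log2 scale), and copies at a few counts could not be compared.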
